A study of Mus musculus with 6 samples.

Results

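The stretch of mouse chromosome 11 between 55 and 60 Mb (mm10) was described in ATAC-seq peak lists of white preadipocytes. It was selected on measured values of the same libraries, because several of its peaks were weaker in knockout cells, so every comparison of the 2 genotypes inside it is a description. Where windows called by a fit over the whole genome are counted in it, the calls mark sites and support nothing about the stretch. Its members were the listed peaks whose summit, the base of highest signal in a peak, lay in the stretch. The 6 lists placed 5447 of their 1797083 summits there, and overlapping peaks merged across the lists into 828 of the 267421 merged regions of the series. Of these 828 regions, 291 (35.1%) were listed in all 6 libraries and 298 (36.0%) in 1 library only. Values at single sites were read in windows of about 0.5 kb centred on a summit. A window was kept when peaks with a q value below 0.01 fell in it in 2 or more libraries. The stretch held 537 of the 179255 such windows. They lay in the larger part of its 828 regions, while 327 regions held no window and are only counted.

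The cells were cultured preadipocytes from the inguinal white fat of young adult mice labelled as C57BL/6, collected at day 0, before differentiation was induced. The WT group held 3 libraries from wild type mice. The DKO group held 3 libraries from mice that were Hmgn1-/- and Hmgn2-/-. The mouse behind each replicate was not given in the sources used here, so the spread between replicates may be technical in part. Chromatin accessibility is read by ATAC-seq through an enzyme, Tn5 transposase, that inserts sequencing adapters into DNA not protected by nucleosomes. Hmgn1 and Hmgn2 encode proteins that bind nucleosomes and make chromatin less compact.

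Promoters of active genes and distant enhancers are the main sites of open chromatin, and in fibroblast-like cells many enhancers carry the motif of AP-1, the FOS and JUN family of transcription factors. Another frequent motif at open sites is that of CTCF, a zinc finger protein that holds chromatin loops in place. The stretch has gene-dense parts with housekeeping and secreted-protein genes (Sparc, Atox1 and G3bp1 near its start, Flcn and Cops3 near its end), a cluster of olfactory receptor genes, and a gene-poor part around receptor genes best known from neurons. These are Glra1 (the alpha 1 subunit of the glycine receptor), Nmur2 (a receptor of neuromedin U) and Gria1 (an AMPA glutamate receptor subunit). Between the 5' end of Glra1 and Nmur2 lay 417 kb without a protein-coding gene, and between Nmur2 and Gria1 lay 970 kb. The long antisense RNA gene Gm12239 (chr11:55772088-56070848) covered much of the first of these gaps.

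Sequences of 9 sites are printed because the description turns on them: the 5 windows that were lower in DKO past the genome-wide threshold, the only window of the same half-megabase with a positive change, the 2 windows listed only in DKO with the highest changes, and the best-ranked window of the next megabase, whose values were alike in both groups. Each gives the summit with 100 bases on either side, on the plus strand of RefSeq's GRCm38.p6 assembly, which is the same build as mm10. Capitals mark a match to AP-1 (TGACTCA or TGAGTCA, which are each other's reverse complement) or to CTCF on either strand. A match is a description of the letters and no evidence of binding.
Glra1 intron, chr11:55519361-55519561: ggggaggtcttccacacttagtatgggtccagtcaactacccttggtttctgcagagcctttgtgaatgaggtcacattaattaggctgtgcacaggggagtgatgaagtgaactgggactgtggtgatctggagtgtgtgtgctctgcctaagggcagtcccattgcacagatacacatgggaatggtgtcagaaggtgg
Upstream of Glra1, chr11:55748112-55748312: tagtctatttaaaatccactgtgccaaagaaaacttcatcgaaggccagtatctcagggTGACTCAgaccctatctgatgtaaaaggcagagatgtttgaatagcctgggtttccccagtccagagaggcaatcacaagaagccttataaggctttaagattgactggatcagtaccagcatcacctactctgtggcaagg
Upstream of Glra1, chr11:55768195-55768395: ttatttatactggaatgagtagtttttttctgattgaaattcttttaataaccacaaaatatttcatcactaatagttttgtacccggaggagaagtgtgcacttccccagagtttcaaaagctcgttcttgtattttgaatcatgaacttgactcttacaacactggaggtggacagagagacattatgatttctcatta
Gm12239 intron, chr11:55877722-55877922: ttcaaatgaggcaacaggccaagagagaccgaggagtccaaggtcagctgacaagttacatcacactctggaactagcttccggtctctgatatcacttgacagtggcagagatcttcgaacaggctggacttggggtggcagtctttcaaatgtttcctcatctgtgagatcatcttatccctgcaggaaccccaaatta
Gm12239 intron, chr11:55940391-55940591: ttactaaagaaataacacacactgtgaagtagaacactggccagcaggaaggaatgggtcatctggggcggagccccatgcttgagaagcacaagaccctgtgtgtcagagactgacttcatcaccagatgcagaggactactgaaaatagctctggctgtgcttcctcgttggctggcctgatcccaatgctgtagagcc
Gm12239 intron with a positive change, chr11:55981777-55981977: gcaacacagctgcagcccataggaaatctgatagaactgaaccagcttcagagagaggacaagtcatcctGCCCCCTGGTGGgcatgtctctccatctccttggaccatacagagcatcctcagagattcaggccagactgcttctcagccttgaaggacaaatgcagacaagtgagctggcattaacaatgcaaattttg
Listed only in DKO, chr11:57465077-57465277: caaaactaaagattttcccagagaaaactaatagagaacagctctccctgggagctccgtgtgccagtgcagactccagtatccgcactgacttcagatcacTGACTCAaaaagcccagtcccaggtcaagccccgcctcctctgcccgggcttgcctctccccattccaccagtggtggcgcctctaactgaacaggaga
Listed only in DKO, chr11:56291590-56291790: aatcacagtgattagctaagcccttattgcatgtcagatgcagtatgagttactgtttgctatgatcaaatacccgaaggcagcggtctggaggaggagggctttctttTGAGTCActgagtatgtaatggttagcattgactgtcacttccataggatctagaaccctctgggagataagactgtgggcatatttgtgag
Alike in both groups, chr11:56374560-56374760: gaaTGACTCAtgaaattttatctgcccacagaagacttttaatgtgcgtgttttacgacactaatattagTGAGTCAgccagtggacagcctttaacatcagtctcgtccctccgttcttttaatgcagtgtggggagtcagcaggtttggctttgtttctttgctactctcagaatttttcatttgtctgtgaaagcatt
Among the 5 lower sites, 1 held an AP-1 match and none a CTCF match, while the site with a positive change held the CTCF match. Both DKO-only sites held 1 AP-1 match each, and the site that was alike held 2. AP-1 matches stood in 23.6% and CTCF matches in 3.07% of all windows. Of the 13 windows of the stretch listed only in DKO, 5 held an AP-1 match. The printed sites are too few to read a difference in motifs from them.

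Of the preadipocyte markers, 9 of 10 had a window within 1 kb of a transcription start site (TSS), and 8 of 10 had one listed in all 6 libraries. None of the 4 mature adipocyte markers had one. Promoter windows listed in all 6 libraries were also present for 2 of 3 endothelial markers (Pecam1, Kdr) and 1 of 4 immune markers (Cd68), and their part in the results was not tested. A window 1 bp from the Hmgn2 start had fold enrichments of 7.89, 7.53 and 9.45 in the WT libraries and was listed in no DKO library. The window nearest the Hmgn1 start was listed in all 6, with 12.6, 13.9 and 20.1 in WT and 14.9, 16.3 and 14.4 in DKO, and does not bear on the labels, since the deleted part was not placed here. Every library listed 299433 to 299620 summits, so depth did not show in the list length. The local background behind the summits, in reads, was most often 2.42, 2.51 and 2.41 in WT and 2.58, 2.53 and 2.05 in DKO, and was lowest in DKO replicate 3.

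The half-megabase chr11:55500000-56000000, which runs from Glra1 into Gm12239, had lower values in DKO at nearly all of its sites. It held 29 windows, and 28 of them had a negative log2 change, with a median of -1.01. A log2 change is the DKO minus WT difference of quantile-normalized log2 fold enrichment, the ratio of a summit's reads to its local background, with unlisted values set to the lowest of that library. At 10 of the 29 windows no DKO library listed a summit, so their negative changes rest on filled-in values and are no measured folds. The 10 windows listed in all 6 libraries were all negative, with a median of -0.94. In the whole stretch the median change was -0.01, against 0.06 in the 5 Mb before it, 0.05 in the 5 Mb after it and 0.01 over all windows. After quantile normalization, on which every such count rests, all WT values lay above all DKO values at 18 of the 29 windows, and the opposite order occurred at none. Over the 537 windows of the stretch these orders occurred 78 and 56 times (14.5% and 10.4%), and over all windows in 7.67% and 8.76%. Nothing is read from these shares, since the stretch was chosen on this contrast.

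**Figure D1:**
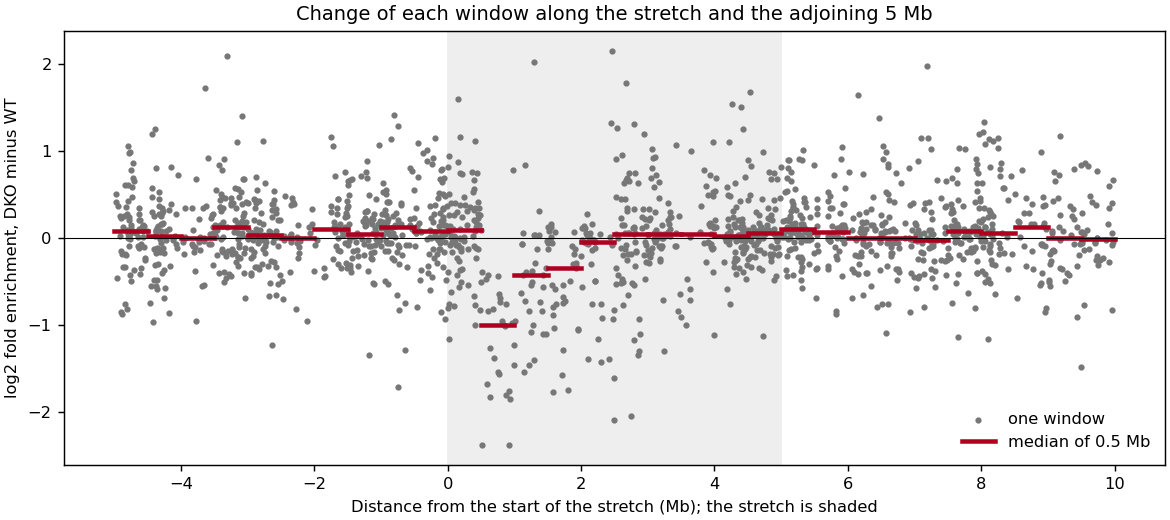
Each grey point is a window of 0.5 kb, placed by its distance from the start of the stretch (Mb, shaded from 0 to 5), and the y axis gives its log2 fold enrichment, DKO minus WT. Red lines are medians per 0.5 Mb, which dip to -1.01 between 0.5 and 1 Mb and stay negative to 2.5 Mb.

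In the limma fit over all windows, 5 windows of the stretch were lower in DKO at an adjusted p below 0.05, where 0.034% of all windows were. None was higher, where 0.0229% of all windows were, and at an unadjusted p below 0.05 the stretch had 64 lower and 42 higher windows (11.9% and 7.82%, against 6.1% and 5.68% of all windows). All 5 lay in this half-megabase. With any 1 of the 6 libraries left out none of the 5 remained past the threshold, and over all windows 0 or 1 was then called lower. The median change of the half-megabase ranged from -1.15 to -0.97 over these 6 fits.

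Of the 5, the site with the highest WT fold enrichment, and the smallest change, was an intergenic site at chr11:55747962-55748462, 140.0 kb upstream of the Glra1 start. Its fold enrichment was 25.5, 19.0 and 25.3 in the WT libraries and 8.95, 7.37 and 5.57 in the DKO libraries. The groups did not overlap, and the log2 change was -1.54 (SE 0.15). Its rank by p was 5379, 10245 and 8662 in WT and 75886, 104048 and 123340 in DKO, so all WT ranks were better than all DKO ranks. The summit held 123, 82 and 137 reads in WT and 31, 25 and 16 in DKO.

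A second intergenic site, chr11:55768045-55768545, lay 160.1 kb from the Glra1 start and had no AP-1 match. It read 11.8, 10.99 and 17.2 in WT and 3.91, 4.82 and 3.28 in DKO, a change of -1.57 (SE 0.18). Here too the groups did not overlap. Between these sites, chr11:55763551-55764051 with an AP-1 match differed less and was not called, with 11.6, 9.31 and 12.4 in WT against 5.31, 6.52 and 6.88 in DKO (log2 change -0.64, SE 0.16).

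The other called sites lay in introns. Within Gm12239, chr11:55877572-55878072 read 17.3, 15.5 and 18.5 in WT and 3.63, 5.95 and 3.93 in DKO (log2 change -1.81, SE 0.18). Farther along the same gene, chr11:55940241-55940741 read 17.1, 14.8 and 20.6 in WT and 4.47, 3.68 and 4.92 in DKO (log2 change -1.85, SE 0.16). The lowest WT value of both was above 14 and the highest DKO value below 6. Within Glra1 and the antisense gene Gm12236, chr11:55519211-55519711 read 7.25, 7.46 and 11.5 in WT and was listed in no DKO library. Its log2 change of -2.38 (SE 0.30) therefore rests on the lowest values of the DKO lists and is no measured fold.

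The largest negative change of the stretch, -2.39 (SE 0.38), was that of a Gm12239 intron site with an AP-1 match, chr11:55925265-55925765. It read 7.88, 9.96 and 18.2 in WT, was unlisted in DKO replicates 1 and 2 and read 3.28 in DKO replicate 3. It did not pass the threshold. The promoter window of Glra1, 173 bp from its start, read 7.59, 6.26 and 7.93 in WT and 4.75, 4.82 and 4.59 in DKO, which did not overlap, with a change of -0.43 (SE 0.18) that was not called. Nearer to G3bp1, chr11:55505463-55505963 read 8.55, 9.21 and 9.58 in WT and 5.35, 5.74 and 5.77 in DKO (log2 change -0.50, SE 0.17). The only window with a positive change, the Gm12239 intron site with the CTCF match, was weak in all lists, with 4.09 and 3.42 in WT replicates 1 and 2, no listing in WT replicate 3, and 5.31, 3.40 and 5.24 in DKO (log2 change 0.79, SE 0.42).

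Of the 29 windows, 21 were listed in 3 or more libraries, 10 in all 6, and 10 in no DKO library. WT libraries listed a summit in 77 of 87 possible cases and DKO libraries in 43 of 87. At the 10 windows listed in all 6, every WT value lay above every DKO value after quantile normalization, next to 7.67% of all windows. Their changes ran from -1.85 to -0.39. In the fold enrichments themselves the groups overlapped at a Glra1 intron site, chr11:55574446-55574946, with 13.0, 9.84 and 16.9 in WT and 7.27, 10.2 and 7.54 in DKO. The local background at these 10 windows had a median of 3.31, 3.27 and 3.81 reads in WT and 2.58, 2.53 and 2.05 reads in DKO. The DKO medians equal the background most common in each DKO list. Over the 314 windows of the stretch listed in all 6 libraries this median was 3.86, 3.70 and 4.19 in WT and 3.90, 3.97 and 3.08 in DKO. Reads at the summit, which are not scaled for depth, were fewer in every DKO library than in any WT library at all 10 windows. The share of all windows with this order in unscaled reads was not computed. Quantile-normalized summit reads in place of fold enrichment leave the background out. With them the median change of the half-megabase was -0.62, and 28 of 29 windows were negative, with unlisted values again filled in. All WT values then lay above all DKO values at 17 of the 29, and at 14729 of the 178376 windows of that fit. Merged regions gave the same picture, as the WT libraries had 34, 31 and 29 of the 56 regions here and the DKO libraries had 14, 19 and 18.

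**Figure D2:**
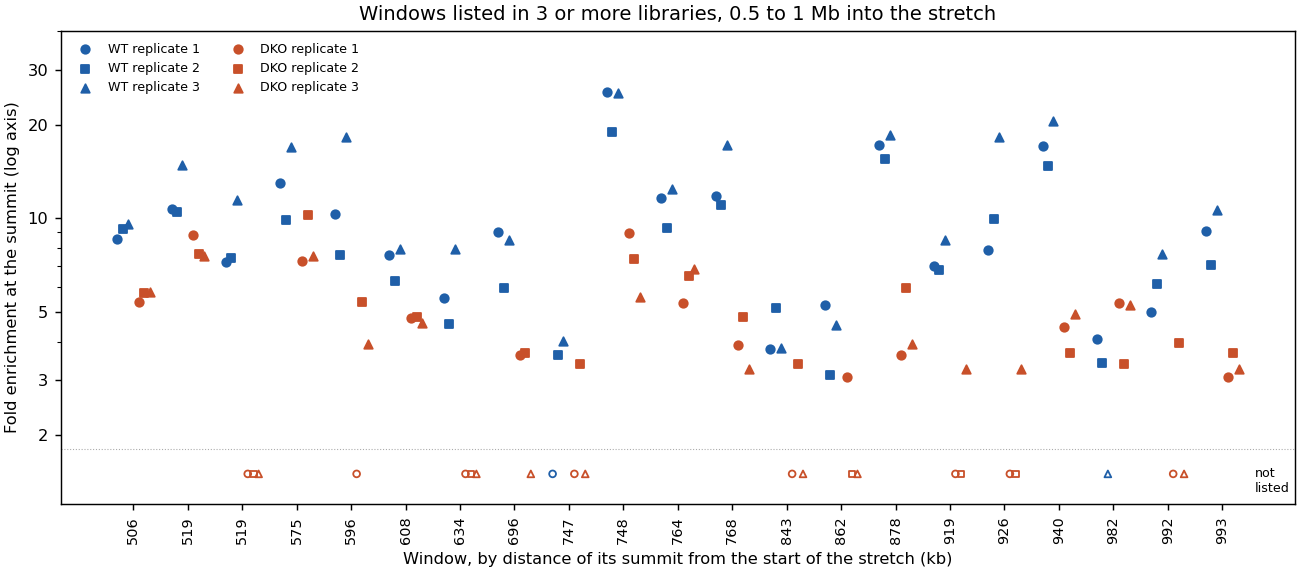
The 21 windows listed in 3 or more libraries between 0.5 and 1 Mb into the stretch are ordered along the x axis by the distance of their summit from its start (kb), and the y axis gives fold enrichment on a log scale. Filled symbols are single libraries (WT blue, DKO orange) and open symbols mark libraries without a listing. WT symbols reach 25.5 and DKO symbols 10.2.

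The lower values went on beyond Glra1 and Nmur2 and faded towards Gria1. Medians per 0.5 Mb were -0.43 over 34 windows and -0.34 over 35 windows in the next megabase, and -0.05 over 43 windows after it. These medians include filled-in values. The next megabase held 69 windows, 12 listed in no DKO library and 2 in no WT library. Over its 29 windows listed in all 6 libraries the median was -0.21. Before the half-megabase, in the 86 windows around Sparc, Atox1 and G3bp1, the median was 0.09. Near this border the G3bp1 promoter window had a change of 0.15 (SE 0.10). Inside G3bp1, a window listed in 2 libraries had -0.83 (SE 0.46) and the last one, listed in all 6, had 0.09 (SE 0.11). The first window past its 3' end had -0.50 (SE 0.17), and the windows from there to chr11:55747962-55748462 were negative as well. The whole run chr11:55500000-57000000 held 98 windows, 83 with a negative change, a median of -0.61, and a single window within 1 kb of a TSS, that of Glra1. Of these 98 windows 39 were listed in all 6 libraries, so the median rests in part on filled-in values. The remaining 439 windows of the stretch had a median of 0.03.

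Counts of listed summits showed the same run. In the half-megabase from Glra1 the lists held 56, 50 and 48 summits in WT and 24, 27 and 24 in DKO. Over the run of 1.5 Mb they held 174, 157 and 157 in WT and 98, 102 and 107 in DKO. In the other 3.5 Mb of the stretch the order was the opposite, with 760, 744 and 740 in WT and 806, 808 and 794 in DKO. Over the stretch as a whole the groups overlapped, with 934, 901 and 897 summits in WT and 904, 910 and 901 in DKO.

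**Figure D3:**
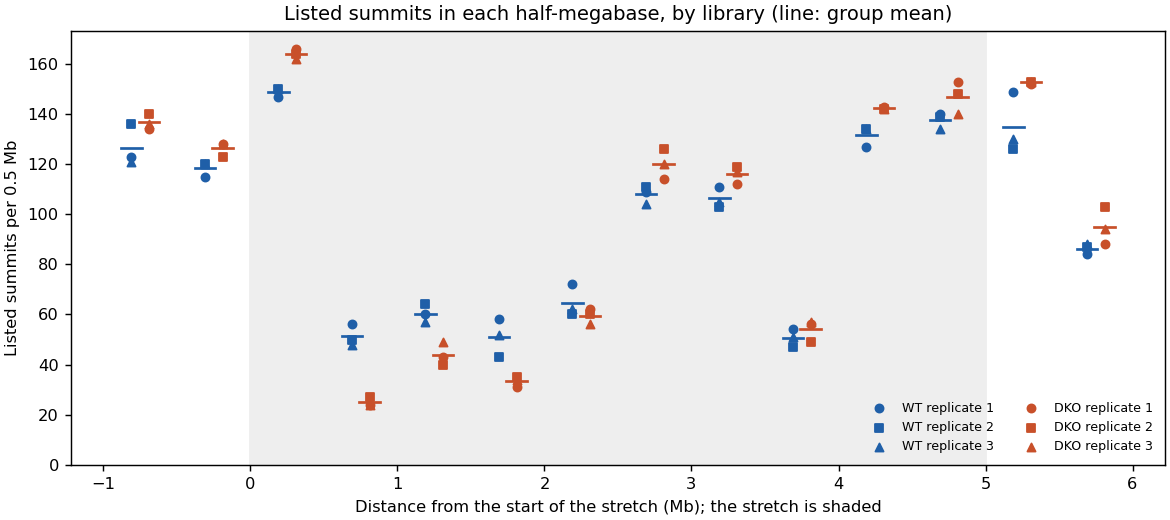
The x axis is the distance from the start of the stretch (Mb, shaded from 0 to 5) and the y axis the listed summits per 0.5 Mb, with 1 symbol per library and a line at each group's mean. WT and DKO symbols separate between 0.5 and 1 Mb, where WT libraries had 48 to 56 summits and DKO libraries 24 to 27.

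Within the next megabase, between Nmur2 and Gria1, the sites did not all behave alike. An intergenic site 333.7 kb from Nmur2 was one of the best-ranked of the stretch and had values that overlapped, 18.3, 17.9 and 18.1 in WT and 18.9, 16.7 and 14.96 in DKO (log2 change 0.03, SE 0.12, chr11:56374410-56374910). A weaker neighbour had a change of 0.31 (SE 0.13). In contrast, chr11:56290640-56291140 read 15.4, 13.2 and 13.8 in WT and 3.35, 5.95 and 5.24 in DKO (log2 change -1.41, SE 0.22). Only 800 bp away, chr11:56291440-56291940 was listed in the DKO libraries alone, with 6.71, 4.82 and 6.23. These neighbouring windows thus differed in opposite directions. Nmur2 itself had no region in its body or within 1 kb before it.

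In a fit of the windows listed in all 6 libraries, chosen as an alternative because it drops filled-in values, 13 windows of the stretch were lower in DKO and none higher, where 0.59% and 0.284% of the windows in that fit were. Of the 13, 5 lay in the half-megabase from Glra1, 3 in the next megabase and 5 elsewhere. Those elsewhere included an Anxa6 intron (annexin A6, a calcium-dependent membrane-binding protein), with 9.68, 10.4 and 11.4 in WT and 4.50, 4.77 and 3.34 in DKO. A Sparc intron site with an AP-1 match read 6.68, 6.64 and 6.62 in WT and 3.22, 3.04 and 2.47 in DKO. Sparc encodes a secreted matrix glycoprotein abundant in adipose stroma, and its promoter window had a change of 0.13 (SE 0.12).

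Of the 90 protein-coding genes of the stretch, 55 had a promoter window. None of these was called in either fit, where 0.034% and 0.0229% of all windows were called lower and higher in the first, so a count of 0 in 55 says little. Their changes had a median of 0.02, against 0.01 over all windows. All WT values lay above all DKO values at 3 of the 55 and the opposite order occurred at 3, next to 7.67% and 8.76% of all windows. Genes that share a promoter, such as Igtp and Irgm2 or Snap47 and Jmjd4, share 1 window and are not separate evidence.

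The list of secreted and matrix genes also held Hand1, a developmental transcription factor, and Galnt10, an enzyme of the Golgi. Of its members 4 of 6 had a promoter window (Gm2a, Sparc, Mfap3 and Galnt10), with changes from 0.02 to 0.15. The Sparc promoter read 10.5, 9.78 and 11.6 in WT and 9.51, 10.7 and 10.5 in DKO, which overlapped. The promoters of Fat2, an atypical cadherin, and Hand1 had none. The list of neuronal receptors and channels also held the amino acid transporter genes Slc36a1, Slc36a2 and Slc36a3. Of its members 5 of 8 had a promoter window, and Glra1 was the one with all WT values above the DKO values. The Gria1 promoter window was weak, listed at 4.67 and 4.70 in 2 WT libraries and at 3.35 in 1 DKO library.

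Of the list of metabolism and organelle genes, 15 of 15 had a promoter window in all 6 libraries. The highest change was at Guk1, which encodes guanylate kinase, with 7.50, 8.77 and 9.67 in WT and 12.2, 11.6 and 10.6 in DKO (log2 change 0.59, SE 0.14). All DKO values lay above all WT values there. Med9, which encodes a subunit of the transcriptional Mediator complex and no metabolic enzyme, had the opposite order, with 21.7, 22.35 and 24.9 in WT and 18.9, 19.9 and 16.9 in DKO (log2 change -0.19, SE 0.10). The Atox1 promoter, of a copper chaperone, was among the strongest, with 25.003, 20.4 and 23.6 in WT and 24.1, 22.2 and 23.9 in DKO, which overlapped.

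All 13 genes of the RNA and zinc finger list had a promoter window, with changes from -0.24 to 0.46. The highest was at Gemin5, a part of the SMN complex that assembles small nuclear ribonucleoproteins, with 4.52, 4.89 and 6.56 in WT and 5.45, 7.54 and 6.33 in DKO. The groups overlapped in these values but not after quantile normalization. G3bp1, a core protein of stress granules, had the other such promoter of this list, at 16.6, 16.1 and 18.2 in WT and 17.1, 17.9 and 16.1 in DKO. Of the interferon-inducible and innate immunity genes 7 of 8 had one, with changes from -0.40 at Trim11, a ubiquitin ligase, to 0.17 at Rnf187. The Igtp and Irgm2 window, at a shared start of 2 immunity-related GTPases, read 14.6, 15.6 and 18.7 in WT and 13.8, 14.2 and 12.7 in DKO.

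Of the olfactory receptor genes and pseudogenes, 24 of 26 had no promoter window, and no vomeronasal receptor gene lay in the stretch. Olfr224 had a window in 2 WT libraries and Olfr222 in all 6. Of the Wnt ligand genes, Wnt9a had a weak promoter window, at 2.78, 3.53 and 3.23 in WT and 3.51, 3.43 and 4.42 in DKO (log2 change 0.63, SE 0.37), and Wnt3a had none.

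**Figure D4:**
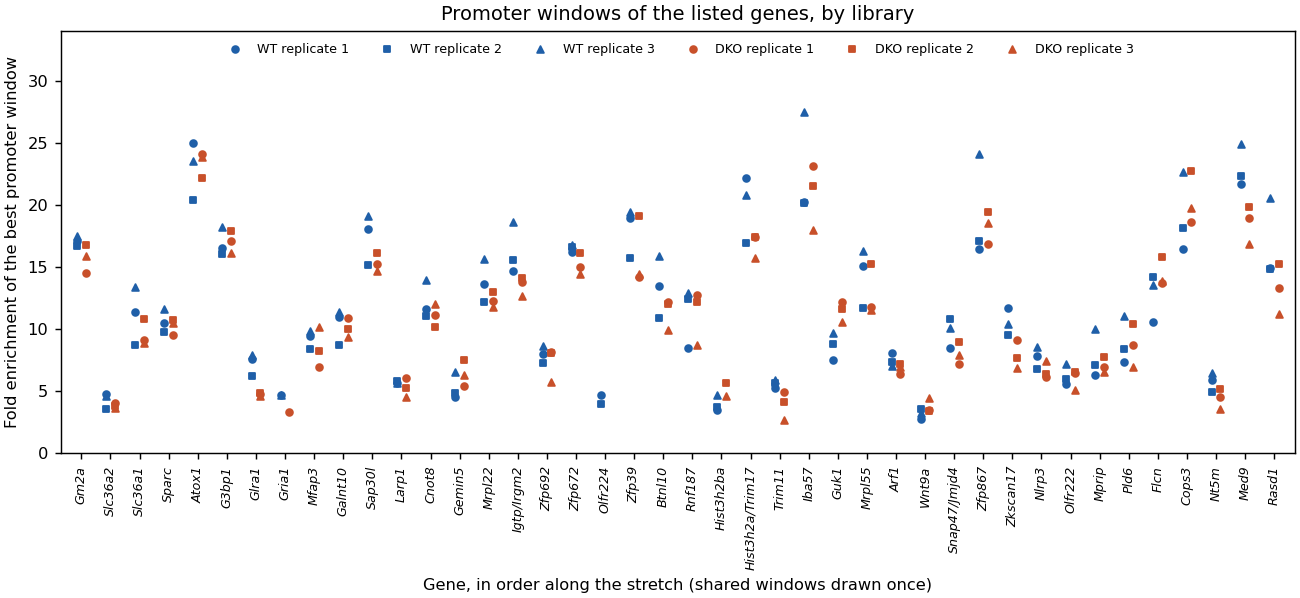
Fold enrichment (y axis) of the best promoter window is drawn for the reported genes of the lists with such a window, in order along the stretch (x axis), with 3 WT symbols in blue and 3 DKO symbols in orange. Most groups overlap, Glra1 symbols are lower in DKO and Guk1 symbols are higher in DKO.

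The 10 windows with the best mean rank showed little difference between groups, with changes from -0.06 to 0.22. The first was at the start of Gm12258, with 36.3, 29.9 and 37.5 in WT and 31.3, 32.1 and 30.4 in DKO. Next came the G3bp1, Atox1 and Cops3 starts. Cops3, a subunit of the COP9 signalosome, read 16.5, 18.1 and 22.7 in WT and 18.6, 22.7 and 19.7 in DKO. Of the distant sites among the 10, one lay 5.3 kb from the Sparc start and read 13.7, 13.6 and 15.9 in WT and 14.4, 15.5 and 14.01 in DKO. Another lay in a Galnt10 intron (a transferase that starts O-linked glycosylation) and read 21.2, 20.8 and 20.1 in WT and 18.2, 21.0 and 19.9 in DKO.

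Windows listed in one group only were few. At 10 windows the 3 WT libraries had a summit and the DKO libraries had none (1.86%, against 1.23% of all windows), and the reverse at 13 (2.42%, against 1.14%). Which of these counts was larger depended on the setting. They were 16 and 7 with half-window coverage by peaks in place of summits, and 10 and 2 with the 50000 best peaks of each list. The WT-only windows included the Glra1 intron site above, a site 25.9 kb upstream of Glra1 with 5.55, 4.55 and 7.93, and a pair in the next megabase, with 5.84, 5.12 and 5.87 at chr11:56585653-56586153 and 5.84, 4.27 and 6.75 at chr11:56807311-56807811. Their fold enrichments ran from 2.54 to 11.5, and those of the DKO-only windows from 2.56 to 7.83. The DKO-only window with the highest change, 2.15 (SE 0.34), was chr11:57464927-57465427, past the 3' end of Fam114a2, with 7.83, 5.06 and 6.61. Others lay in introns of Galnt10 (5.08, 5.70 and 4.20) and Wnt3a (3.76, 5.10 and 3.93), near Slc36a3 (5.78, 4.85 and 3.06) and 14.7 kb from the start of Nlrp3, the inflammasome sensor (4.89, 3.70 and 5.26). A window unlisted in a library may hold reads below the list's last peak.

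The 5 lowest changes included a pair of sites outside the run. A Fam114a2 intron window, chr11:57488339-57488839, read 8.61, 8.61 and 9.82 in WT, was unlisted in DKO replicates 1 and 2 and read 2.95 in DKO replicate 3. In a Galnt10 intron, chr11:57751589-57752089 read 10.5, 6.75 and 11.6 in WT and was listed at 3.97 in DKO replicate 2 alone. Of the 22 windows in Galnt10, 3 had all WT values above and 6 had all DKO values above, next to 7.67% and 8.76% of all windows.

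Among the genes with the most merged regions were Gria1 with 50 regions over 319 kb, Galnt10 with 31, and Larp1 and Mprip with 24 each. Gria1 is the longest of them and had 1.57 regions per 10 kb, while Larp1, an RNA-binding protein gene of 53.0 kb, had 4.53. Snap47 had 17 regions, Anxa6 14, Zkscan17 13, and Fat2, Glra1 and Wnt9a 12 each. Within the body of Gria1 the 32 windows had a median change of -0.05, and all WT values lay above all DKO values at 5 of them, with none of the opposite order, next to 7.67% and 8.76% of all windows.

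The stretch was also set against the adjoining 5 Mb on either side within each library. The DKO values that chose the stretch enter these differences, so they are given for each group, as a description. The WT libraries listed 187, 180.2 and 179 summits per Mb in the stretch, 214, 214 and 205 before it and 188, 175 and 175 after it. The DKO libraries listed 181, 182 and 180.2 in the stretch, 229, 224 and 224 before it and 186, 199 and 190.4 after it. All 6 libraries thus listed fewer summits in the stretch than before it, while 2 of 3 WT libraries listed more in it than after it and all DKO libraries fewer. Against the mean of both sides the difference was -13.9, -14.1 and -10.2 in WT and -26.9, -29.3 and -27.1 in DKO, and these groups did not overlap. The share of summits within 1 kb of a TSS was smaller than in the mean of both sides in every library, with differences of -3.94, -4.79 and -5.32 percentage points in WT and -2.82, -3.07 and -2.64 in DKO. The median rank percentile, where 0 is the best peak of a list, differed from the mean of both sides by 0.33, 0.96 and -0.38 in WT and 2.93, 0.39 and 4.46 in DKO, so the groups overlapped and 1 library had the opposite sign.

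**Figure D5:**
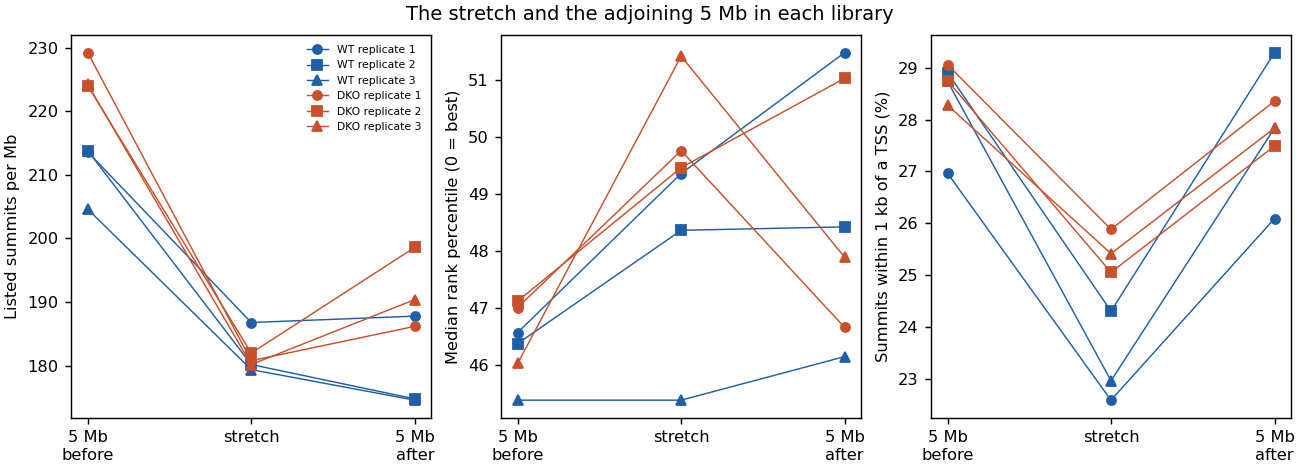
Each line is a library (WT blue, DKO orange) and joins its value in the 5 Mb before the stretch, in the stretch and in the 5 Mb after it, for listed summits per Mb, the median rank percentile and the share of summits within 1 kb of a TSS (%). The share near a TSS is lowest in the stretch in all 6 libraries, and the summits per Mb are lower there than in the 5 Mb before it.

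By annotation, 249 of the 537 windows lay in introns, 240 between genes, 38 in non-coding parts of exons and 10 in coding exons. AP-1 matches within 100 bp of the summit stood in 144 windows (26.8%), against 18.2% and 22.7% in the 5 Mb before and after and 23.6% of all windows. CTCF matches stood in 19 windows (3.54%, against 3.07% of all), TEAD matches (GGAATG) in 97 (18.1%, against 16.3%) and CEBP matches (TTGCGCAA, TTGCATCA or TTGTGCAA) in 13 (2.42%, against 2.72%). In the run of 1.5 Mb, 35 of 98 windows had an AP-1 match (35.7%), and 1 of the 98 lay within 1 kb of a TSS. In the stretch, an AP-1 match stood in 12.1% of windows within 1 kb of a TSS and in 30.1% of those farther away. Windows of the stretch with and without an AP-1 match had median changes of -0.03 and -0.01. The 4 windows of the run with a CTCF match had changes of 0.79, -0.07, 0.06 and -1.54, so they did not move together. Over the 5500 windows of the genome with a CTCF match the median change was -0.09, against 0.01 over all windows. All WT values lay above all DKO values at 11.1% of these 5500, and the opposite order occurred at 3.84%, against 7.67% and 8.76% of all windows.

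At the borders of the stretch, the last window before it lay in the gene body of Anxa6, with a change of -0.39 (SE 0.21), and the first inside it had -0.81 (SE 0.40). At the other end the last window inside it, in an intron of Pemt, had 0.46 (SE 0.18) and the first outside 0.82 (SE 0.46), so the borders do not coincide with the lower run.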

How the data were processed

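ATAC-seq was performed in 6 libraries of inguinal white preadipocytes at day 0, 3 WT and 3 DKO. Per the labels, the authors used bcl2fastq 2.17, cutadapt 1.18, Bowtie2 2.3.4.3 and MACS2 (version not given in the sources used here) on mm10, and their file names name a p threshold of 0.01, the best 300K peaks, removal of duplicates and mitochondrial reads, and a Tn5 step that was not described further. The study's methods give default MACS2 settings. Each deposited list gives a peak's fold enrichment (a ratio of reads to local background) and −log10 p and q, per sample, with no replicate pooling. The deposited score column, a display value from MACS2, was not used. A pileup of reads was recovered from fold and p under MACS2's Poisson model and a whole number of reads gave the listed −log10 p within 0.001 for 100% of summits, apart from those with the largest −log10 p, where none could be computed.

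Regions were listed peaks with a summit in the stretch, merged at a gap of 0 bp. Windows of 501 bp (summit ± 250 bp) were placed over the genome and kept with q below 0.01 in 2 or more libraries. Each took the highest fold enrichment per library, with unlisted values set to the lowest of the list. Log2 values were quantile-normalized and fitted with limma 3.58.1 (R 4.3.3, eBayes with trend, Benjamini-Hochberg over 179255 windows), and only windows of the stretch were read. The fit and the pileup step were tested on simulated data. TSSs, genes and promoters (within 1 kb) came from GENCODE M21 basic. The stretch and the gene lists, motifs and tests were chosen with earlier results of these data known. Named were all windows of the half-megabase listed in at least 3 libraries (the stronger of these in the text), the 10 best ranks, called windows, the 5 lowest and 5 highest changes, up to 5 windows listed in one group only, list-gene promoters, and the genes with the most regions. The total read depth of the libraries is not given by peak lists, so no counting intervals were made, and the number of libraries limits the precision.

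Alternatives were other scalings, window and peak filters, −log10 p or pileup in place of fold enrichment, each library left out and the replicate block. Only peaks on the autosomes and the X chromosome entered the windows. Some members of the gene and marker lists count in the totals but are not reported by name here.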

Additional observations from a re-analysis of the deposited data

How the results depend on the processing

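The count of 5 lower windows was 12 with median centring, 3 without scaling, 13 in windows listed in all 6 libraries, 9 with the 50000 best peaks of each list and 18 without the eBayes trend. It was 0 with the replicate block (where no window of the genome was called in either direction, 18198 at an unadjusted p below 0.05; same-numbered libraries deviated together with correlations of only 0.00545, -0.0115 and -0.0071, so the numbers do not pair them) and 0 to 0 with each library left out. The count of 0 higher windows was 1 with median centring, 1 with the 50000 best peaks, 1 with −log10 p and 14 without the trend. The median change of the stretch was -0.16 without scaling (where all windows had -0.14), 0.0052 with the 50000 best peaks and -0.0354 with −log10 p, and -0.0731 to -0.0201 with each library left out. That of the half-megabase from Glra1 was -0.90 with median centring, -1.07 without scaling, -0.95 over windows listed in all 6, -1.76 with the 50000 best peaks, -0.83 with −log10 p, -0.62 with the pileup (chosen after seeing the data) and -1.15 to -0.97 with each library left out, so it was negative throughout, and 28 of 29 windows were negative in every fit of all 29. For the 10 of these 29 that no DKO library listed, the negative change rests on filled-in values. Windows with all WT values above numbered 43 in all 6 and 17 with the 50000 best peaks, which test fewer windows, and those with all DKO values above 26 without scaling, 29 and 10. Leaving out each library gave 95 to 114 and 71 to 89. WT-only windows numbered 16 with half-window coverage and 15 to 19 with each library left out, DKO-only windows 2 with the 50000 best peaks, 7 with coverage and 14 to 21. Pooled over the groups, which differed in size and, against the 5 Mb after, in sign, summits per Mb differed from the neighbours by -20.3, by -36.7 with the 5 Mb before alone, by -3.83 with the 5 Mb after alone, and by -22.3 to -18.4 with each library left out. The share near a TSS then differed by -3.99 to -3.45 percentage points. The rank percentile turned to -0.35 with the 50000 best peaks. The stretch had 126 regions with those peaks. The causes of these shifts were not tested, apart from the smaller numbers of windows or libraries named.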
